A study of Mus musculus with 107 samples.

Results

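Iron enters cells through the transferrin receptor and divalent metal transporters, is stored inside ferritin, and leaves through ferroportin. The genes of this traffic were followed in mouse ear skin after sulfur mustard, a blistering alkylating agent. They are 10 gene symbols: Slc40a1, Scara5, Tfrc, Fth1, Ftl1, Slc11a2, Cp, Trf, Ireb2 and Aco1. Slc40a1 and Scara5 were chosen by their measured signal in mustard ears on these same arrays, where they had been seen to move. Their values in the mustard series are therefore a description with no test, and the other 8 were listed beside them as genes of the same pathway. On array A, 29 of 22690 probe sets carried one of these symbols, 25 of them for a single gene, and 19 of those 25 passed the filter on dim signals. On array B there were 6 of 22575, and 5 passed. Of the genes, 8 had a probe set of their own on array A and 4 on array B. All 3 Ftl1 probe sets are also annotated to Ftl1-ps2, and the single Trf probe set also to Srprb, so these are given as values of shared probe sets.

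The RNA-binding iron regulatory proteins 1 and 2 (Aco1 and Ireb2) sense iron. In iron-poor cells they bind stem-loops in messenger RNAs, which blocks translation of ferritin and ferroportin and protects the transferrin receptor message from decay. Skin is a route of iron loss, since iron in shed epidermal cells leaves the body. An array reads messenger RNA only, so translation and iron itself were not measured.

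The arrays held 64 mouse ears on array A, of which 43 were also on array B. Ears in 5 groups belong to the mustard series. Right ears of 6 animals received dimercaprol, 5 octylhomovanillamide (OHV) and 6 indomethacin, each in ethanol 15 min before mustard, and 5 received mustard alone. Left ears of 21 animals, the methylene chloride ears, received only the mustard solvent. The mustard dose was 0.08 mg (0.5 µmol) in 5 µL of methylene chloride on the inner surface of the ear. The drug doses were 6.25 mg (50.3 µmol in 10 µL) of dimercaprol, a thiol chelator, and 1.34 mg (3.74 µmol in 20 µL) of indomethacin, a cyclooxygenase inhibitor. OHV, a vanilloid receptor agonist, was given at 1.995 µmol in 30 µL, stated as 0.6 mg in one label and 0.585 mg in another. Outside the mustard series, on array A only, 4 ears received dimercaprol, 5 OHV and 4 indomethacin without mustard, 3 received ethanol, and 5 ears of 3 naive animals were left untreated. Skin biopsies of 8 mm were taken at 24 h. The ears of a group other than the naive one came from separate animals, while right and left ears share animals. No pretreatment is named for the ears with mustard alone, so a drug and its ethanol cannot be told apart in the pretreated ears.

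Signals below are MAS5 intensities rescaled to give all arrays a trimmed mean of 500, and log2 folds are differences of mean log2(scaled signal + 16) with a standard error. A gene was called changed at a Benjamini-Hochberg adjusted p under 0.05 in limma, over all probe sets tested. In bulk skin, fewer cells of a type and less RNA per cell cannot be told apart. The mustard arrays stood apart before scaling: their trimmed mean signal ran from 66.9 to 137 on array A, against 111 to 222 in methylene chloride ears. Gapdh signal at the 3′ end over that at the 5′ end, a sign of RNA integrity, had a mean log2 ratio of 0.295 ± 0.381 in mustard ears and -0.0627 ± 0.129 in methylene chloride ears (SD, n = 5 and 21). It was highest in the mustard ears of animals 37 and 5, at 0.777 and 0.634. In dimercaprol-pretreated, OHV-pretreated and indomethacin-pretreated ears the mean ratio was -0.0454, -0.100 and 0.00185. Their trimmed mean signal on array A ran from 150 to 268, 121 to 213 and 128 to 211. On array A all dimercaprol-pretreated arrays were thus brighter than all mustard arrays, while on array B the ranges overlapped (34.5 to 45.8 and 18.8 to 38.1). Neutrophil markers rose in mustard ears, 4 of 4 measured of 7 listed, with summed signals of 4521 to 39567 in mustard ears against 492 to 1041 in methylene chloride ears. Most of the sum in mustard ears was S100a8 and S100a9, which averaged 14800 and 13149 there and 236 and 225 in methylene chloride ears. Csf3r and Ngp averaged 298 and 329 in mustard ears, 85.9 and 170 in methylene chloride ears and 199 and 300 in naive ears. Of 9 macrophage markers 1 rose, Cd68, and their summed signal was 2922 to 6105 in mustard ears against 3562 to 8199 in methylene chloride ears. Keratinocyte markers, which define this tissue, summed to 70761 to 99971 in mustard ears and 66792 to 97634 in methylene chloride ears. Of these 6 markers 2 rose, Krt14 (log2 fold 0.40) and Krt10 (0.31), and 2 fell, Krt15 (-1.26) and Trp63 (-0.90). Of 2 measured adipocyte markers 1 fell, Fabp4, which averaged 1533 in mustard ears and 3014 in methylene chloride ears (log2 fold -1.10 ± 0.28, adjusted p = 0.00157), and Adipoq had -0.85 ± 0.38 (adjusted p = 0.0708). Of 2 red blood cell markers 1 rose, and none of 7 fibroblast, 5 endothelial, 6 muscle and 3 Schwann cell markers passed the test. The part of these differences in the results below was not tested.

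Slc40a1 encodes ferroportin, the iron exporter of the cell surface, and had the lowest levels of all groups in mustard ears. Its signal was 437, 313, 294, 837 and 315 in the mustard ears of animals 1, 3, 5, 36 and 37. In methylene chloride ears it ran from 549 through a median of 1376 to 2077. The groups touched only where the mustard ear of animal 36 lay above the lowest methylene chloride ear, the left ear of animal 1. The mean log2 fold was -1.68 ± 0.21, a signal at 0.311 times that of methylene chloride ears. With each animal as a fixed block, in animals with both ears only, it was -1.29, and without the mustard ear of animal 36 it was -1.94. The other Slc40a1 probe set showed a log2 fold of -0.92 ± 0.18, with 266, 241, 209.8, 397 and 382 in mustard ears and 299, 586 and 908 as lowest, median and highest in methylene chloride ears.

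Pretreated ears had on average more ferroportin message than ears with mustard alone. After dimercaprol and mustard the Slc40a1 signal was 1037 at the lowest, 1378 at the median and 1454 at the highest, so every such ear lay above every mustard ear. After OHV and mustard it was 1108, 1466, 706, 1311 and 873, and after indomethacin and mustard 390.5, 823 and 1092 at the lowest, median and highest. Both of these groups overlapped the mustard ears. The log2 folds over mustard ears were 1.63 ± 0.26 for dimercaprol, 1.35 ± 0.27 for OHV and 0.76 ± 0.26 for indomethacin. Against methylene chloride ears the same 3 groups had log2 folds of -0.05 ± 0.20, -0.33 ± 0.21 and -0.93 ± 0.20. These comparisons share the mustard ears or the methylene chloride ears, and all rest on the values that chose the gene. The 4 measured neutrophil markers also fell against mustard ears with dimercaprol (median log2 fold -2.66) and OHV (-1.76), and none passed the test with indomethacin (-0.05). With dimercaprol the markers Trp63, Krt15 and Tek rose, and Krt14, Krt10, Cd68 and Alas2 fell. With OHV 2 of 6 keratinocyte and 1 of 9 macrophage markers rose. In the same ears 1 keratinocyte, 1 macrophage and 1 red blood cell marker fell. No marker of the other cell types was called with indomethacin. The part of these markers, and of the array brightness given above, in the Slc40a1 values was not tested. Naive ears had 1282, 1429, 1223, 1230 and 1172, within the range of the methylene chloride ears. A log2 fold of 0.07 ± 0.23 separated methylene chloride from naive ears, which came from a different series of animals.

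Scara5 encodes a scavenger receptor that binds ferritin and carries its iron into cells. Its signal was 47.7, 117, 75.3, 249 and 29.1 in the mustard ears of animals 1, 3, 5, 36 and 37. In methylene chloride ears it was 179 at the lowest, 293 at the median and 749 at the highest. Again the ear of animal 36 was the single mustard ear within that range. The mean log2 fold was -1.72 ± 0.26, or 0.304 times the methylene chloride signal, and it was -2.08 without the ear of animal 36. The pretreated ears lay higher: 158, 273 and 374 after dimercaprol, and 147, 228 and 353 after indomethacin, each as lowest, median and highest. After OHV they were 506, 323, 178, 152 and 267. Log2 folds over mustard ears were 1.54 ± 0.32 for dimercaprol, 1.49 ± 0.33 for OHV and 1.27 ± 0.32 for indomethacin, and all 3 groups overlapped the mustard ears through animal 36. The second Scara5 probe set went the other way, with 99.6, 134, 132, 92.8 and 188 in mustard ears against 35.5, 96.5 and 130 as lowest, median and highest in methylene chloride ears. Its log2 fold was 0.43 ± 0.23, and across the 21 methylene chloride ears its log2 signal correlated with that of the first probe set at r = -0.186. The low Scara5 signal is thus a reading of 1 of its probe sets.

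**Figure D1:**
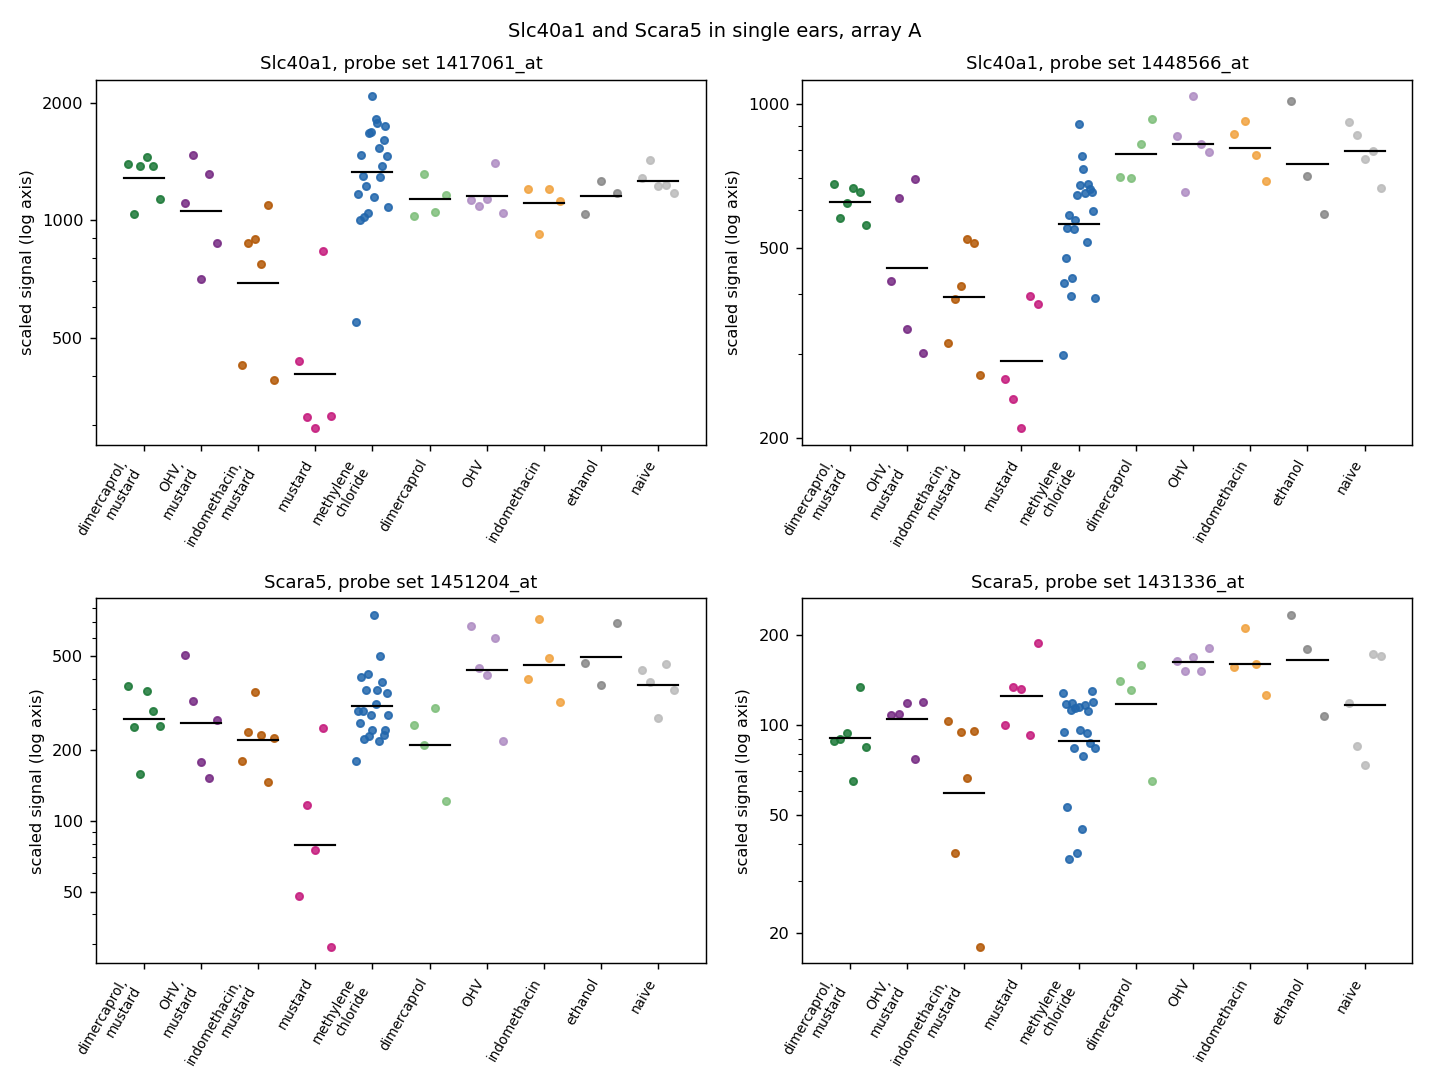
Scaled signal of each kept probe set of Slc40a1 and Scara5 in each array A ear on a log axis. A dot marks an ear and a black line the geometric mean of a group. In the brighter probe set of both genes the mustard group has the lowest geometric mean. There the mustard ear of animal 36, at 837 for Slc40a1 and 249 for Scara5, is the one within the methylene chloride range. In the second Slc40a1 probe set a further mustard ear lies within that range, and the second Scara5 probe set goes the other way.

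Ears without mustard are given for both genes as values with no test, since the choice of the genes was not limited to named groups. Scara5 was 255, 209, 301 and 122 in dimercaprol ears against 470.3, 379 and 694 in ethanol ears. The log2 fold was -1.18 ± 0.33, from 4 and 3 ears and for the brighter Scara5 probe set only. Trimmed mean signals before scaling were 96.4 to 147 in dimercaprol ears and 67.0 to 152 in ethanol ears. Slc40a1 was 1028, 1317, 1053 and 1160 in dimercaprol ears against 1038, 1260 and 1174 in ethanol ears, a log2 fold of -0.02 ± 0.13. None of the 6 other genes with their own probe sets passed the test with dimercaprol, OHV or indomethacin against ethanol in limma, where 0%, 0% and 0% of all probe sets did. None of the 6 had an unadjusted p under 0.05 either, beside 4.85%, 6.24% and 7.02% of all probe sets.

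Of the 6 other genes with their own probe sets, 4 were called in mustard against methylene chloride ears on array A, 1 higher and 3 lower. At the same threshold 42.9% of all array A probe sets were called. The median log2 fold of the 6 genes was -0.19, beside -0.01 over all probe sets. On array B none of the 3 genes with a kept probe set was called by limma, none had an unadjusted p under 0.05, and 26.0% of the probe sets were called there (37.8% at an unadjusted p under 0.05).

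Promoters are shown for Fth1, Aco1 and Tfrc, 3 of the 4 genes called in mustard ears, to set the genes' values beside their regulatory sequence. RefSeq start sites on GRCm38.p6 were given for 6 of the 10 genes: Tfrc, Fth1, Ftl1, Cp, Ireb2 and Aco1. The 100 bases before the start are printed in lower case with GC boxes (GGGCGG) and CCAAT boxes (CCAAT) in capitals, found on either strand and so printed also as their reverse complements. Where a gene has 2 start sites, the downstream one is shown.
Fth1, chr19:9982546-9982645, + strand: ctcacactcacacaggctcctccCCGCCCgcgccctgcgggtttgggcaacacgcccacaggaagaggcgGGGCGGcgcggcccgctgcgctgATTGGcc
Aco1, chr4:40143165-40143264, + strand: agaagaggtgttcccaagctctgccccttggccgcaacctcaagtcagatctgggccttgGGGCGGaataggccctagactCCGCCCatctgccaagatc
Tfrc, chr16:32609022-32609121, + strand: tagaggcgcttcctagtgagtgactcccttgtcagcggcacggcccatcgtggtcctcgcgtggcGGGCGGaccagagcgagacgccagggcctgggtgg
In the 250 bases before each printed start, Fth1 held 3 GC boxes and 1 CCAAT box, Aco1 3 GC boxes and Tfrc 1 GC box. The farther GC boxes of Fth1 and Aco1, at 175 and 222 bases before the start, lie outside the printed stretch. Of 32851 mouse promoter windows of that length, 32.7% held a GC box and 33.8% a CCAAT box. The core of the antioxidant response element, TGACNNNGC, which occurred in 10.2% of windows, was in none of the windows of the 6 genes, nor was TATAAA (12.4% of windows) in those of Aco1, Ireb2, Ftl1 or Tfrc. Such matches describe letters and not bound sites.

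The ferritin heavy chain gene Fth1, whose product oxidises iron as it enters the ferritin shell, rose in mustard ears against methylene chloride ears. Its signal was 11836, 14017, 13768, 10762 and 18741 in the mustard ears of animals 1, 3, 5, 36 and 37. In methylene chloride ears it was 8751, 10566 and 12689 at the lowest, median and highest. The ears of animals 3, 5 and 37 lay above all methylene chloride ears and the other 2 within their range. The log2 fold was 0.37 ± 0.09 (adjusted p = 0.00074, limma), and the second probe set gave 0.24 ± 0.09 (adjusted p = 0.0201). The rise depended on the scaling. Without the ears of animals 5 and 37, which had the highest Gapdh ratios, it was 0.20 (adjusted p = 0.124), with array brightness in the fit 0.17 (adjusted p = 0.156), and under quantile scaling 0.08 (adjusted p = 0.326). With no scaling at all it was -0.27, where the median of all probe sets was -0.60. Fth1 averaged 13825 in mustard ears and 10562 in methylene chloride ears. Outside the mustard series its group means ran from 11527 in naive ears to 13508 in ethanol and 13797 in indomethacin ears. Mustard ears were not tested against those ears.

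Ferritin light chain is the other subunit of the shell. One of its shared probe sets read 1404, 2214, 1863, 1594 and 2760 in mustard ears, against 1074, 1307 and 1536 as lowest, median and highest in methylene chloride ears. All but the ear of animal 1 lay above every methylene chloride ear. The log2 folds of the 3 shared probe sets were 0.57 ± 0.11 (adjusted p = 4.2e-05), 0.46 ± 0.10 (0.000346) and 0.30 ± 0.13 (0.0625). Signal from Ftl1 and from its pseudogene Ftl1-ps2 cannot be separated in these values.

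Fth1 fell in dimercaprol-pretreated and OHV-pretreated ears relative to mustard ears. The signal was 8365, 9927 and 11206 at the lowest, median and highest after dimercaprol and mustard, and 11300, 8705, 10500, 9146 and 13136 after OHV and mustard. After indomethacin and mustard the lowest, median and highest were 9831, 10682 and 12882. These ranges overlap those of both mustard and methylene chloride ears. Against mustard ears the fall was called for dimercaprol (log2 fold -0.45 ± 0.11, adjusted p = 0.00149) and OHV (-0.38 ± 0.11, adjusted p = 0.0165). For indomethacin the log2 fold was -0.30 ± 0.11 (adjusted p = 0.114). Against methylene chloride ears none of the 3 groups was called for Fth1. Under quantile scaling both falls were -0.07, and without the mustard ears of animals 5 and 37 they were -0.29 (adjusted p = 0.0924) and -0.22 (adjusted p = 0.339). The fall with OHV was also not called without the OHV ear of animal 28 or 30 or the mustard ear of animal 37 alone (adjusted p up to 0.109). Neutrophil markers fell in the same 2 contrasts and markers of other cell types moved, as given above. The part of these markers and of array brightness was not tested.

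Aco1 encodes cytosolic aconitase, which becomes iron regulatory protein 1 when it loses its iron-sulfur cluster, and it fell in mustard ears. Its signal was 1226, 1082, 1198, 2260 and 1072 in the mustard ears of animals 1, 3, 5, 36 and 37, against 1543, 2051 and 3719 as lowest, median and highest in methylene chloride ears. All mustard ears other than that of animal 36 lay below every methylene chloride ear. The log2 fold was -0.66 ± 0.14 (adjusted p = 0.00025), and the second array A probe set gave -0.54 ± 0.15 (adjusted p = 0.00366). The call was kept in each of the 26 fits that left out 1 ear, with folds from -0.85 to -0.59, and without the ears of animals 5 and 37. The Aco1 probe set on array B read 637, 248, 269, 292 and 324 in mustard ears against 72.0, 335 and 472 as lowest, median and highest in methylene chloride ears, a log2 fold of 0.11 ± 0.22 (adjusted p = 0.738). The median fold of all array B probe sets in this comparison was 0.14, and the ear of animal 1 was the highest of the mustard ears there.

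Aco1 fell in indomethacin-pretreated ears too, with 987, 1265 and 1508 as lowest, median and highest. All 6 lay below the lowest methylene chloride ear, and the log2 fold was -0.74 ± 0.13 (adjusted p = 2.65e-05, and 0.000229 for the second probe set). With each animal as a fixed block, in animals with both ears only, it was -0.55 (adjusted p = 0.0845), which ends the call. In the same contrast, which also held the indomethacin calls of Slc11a2 and Tfrc given below, neutrophil markers rose, 4 of 4 (median log2 fold 3.21), with summed signals of 9705 to 36570 in indomethacin-pretreated ears against 492 to 1041 in methylene chloride ears. Most of the sum in indomethacin-pretreated ears was again S100a8 and S100a9, while Csf3r and Ngp averaged 159 and 330 there. Of 6 keratinocyte markers 3 fell (Krt5, Krt15 and Trp63), and of 9 macrophage markers Cd68 rose and Csf1r fell. The part of these markers was not tested. After dimercaprol and mustard Aco1 read 1414, 1970 and 2225 as lowest, median and highest, and after OHV and mustard 1338, 2291, 1669, 1854 and 1766. Dimercaprol-pretreated ears were called higher than mustard ears (0.52 ± 0.18, adjusted p = 0.0234) and higher than indomethacin-pretreated ears (0.60 ± 0.17, adjusted p = 0.0182). The first of these calls ended without any 1 of the mustard ears of animals 3, 5 and 37 or the dimercaprol ears of animals 6 and 9, where adjusted p reached up to 0.0859. The second ended without the dimercaprol ear of animal 6 or the indomethacin ear of animal 16 or 22. For dimercaprol against mustard ears, the second probe set gave 0.24 (adjusted p = 0.353), and array brightness in the fit left 0.15 (adjusted p = 0.754).

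The other sensor, Ireb2, encodes iron regulatory protein 2, which is regulated mainly by protein breakdown. It read 403, 338, 482, 473 and 344 in mustard ears against 298, 422 and 553 as lowest, median and highest in methylene chloride ears. All mustard ears lay within the methylene chloride range, and the log2 fold was -0.04 with a 95% interval from -0.26 to 0.17 (adjusted p = 0.785). None of the comparisons in the mustard series called it.

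**Figure D2:**
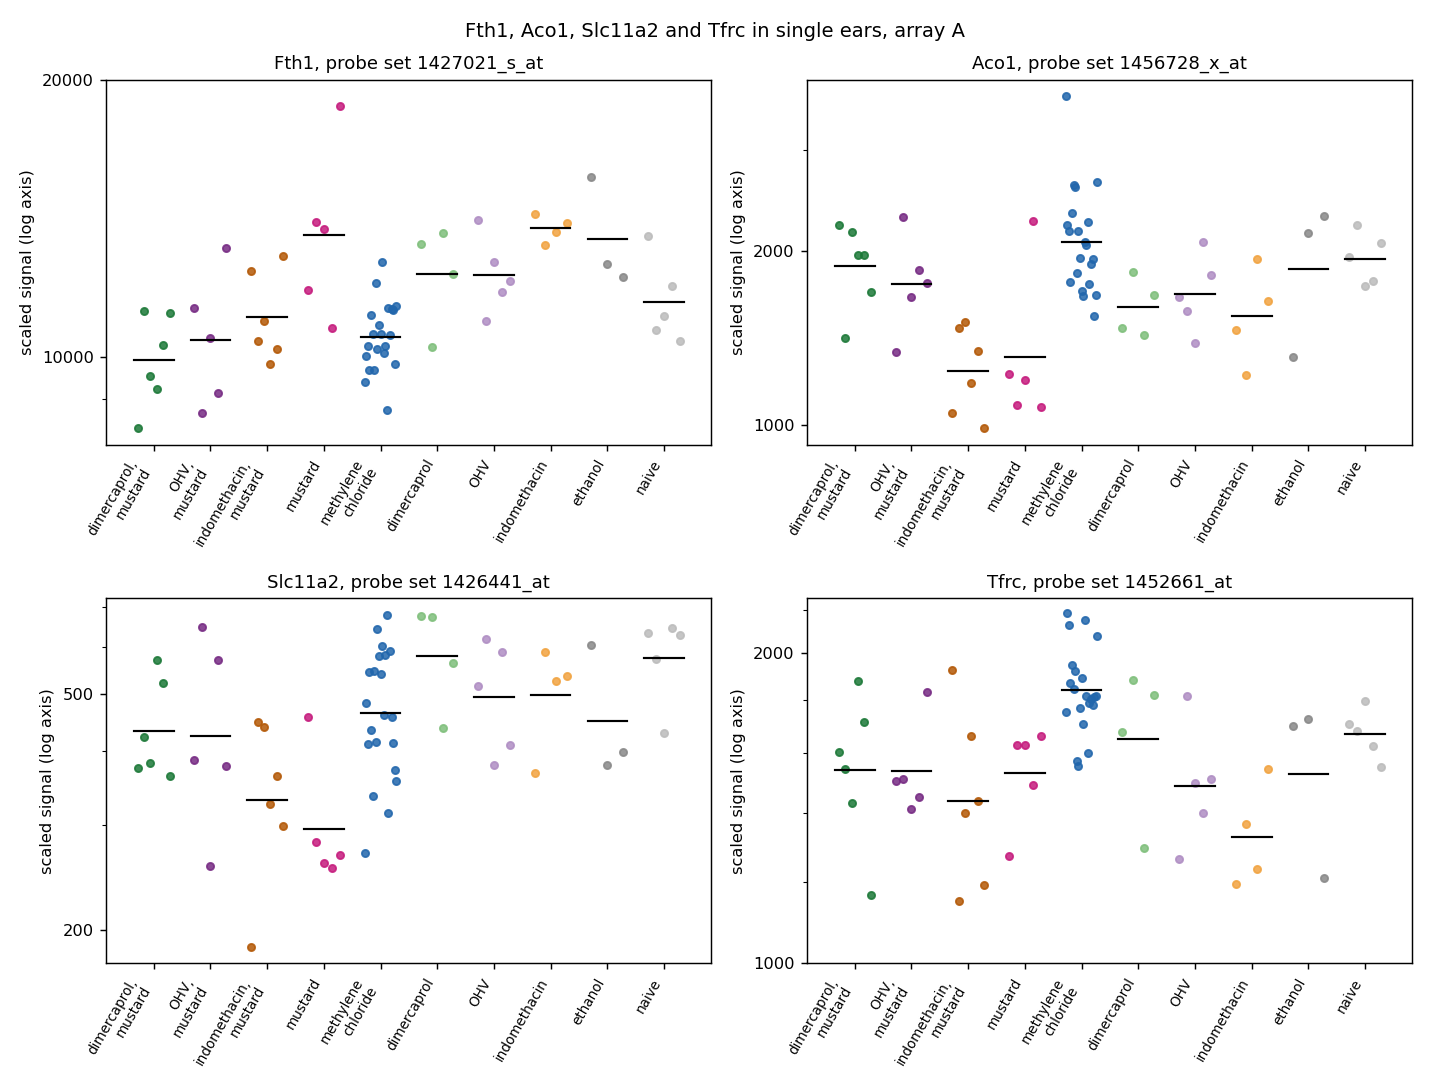
Scaled signal of Fth1, Aco1, Slc11a2 and Tfrc in each array A ear on a log axis, with a dot per ear and a black line at the geometric mean. Mustard ears reach 18741 for Fth1, and indomethacin-pretreated ears for Aco1, 987 to 1508, all lie below the lowest methylene chloride ear at 1543.

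Among the uptake genes, Slc11a2 encodes divalent metal transporter 1, which carries ferrous iron across membranes. Its signal was 456, 282, 260, 254 and 268 in the mustard ears of animals 1, 3, 5, 36 and 37. In methylene chloride ears it was 270, 461 and 679 at the lowest, median and highest. The mustard ear of animal 1 stood near the methylene chloride median, 3 ears lay below the whole methylene chloride range and the ear of animal 3 just inside it. The log2 fold was -0.62 ± 0.18 (adjusted p = 0.00425). A second probe set gave -0.46 ± 0.15 (adjusted p = 0.0136) and the third -0.02 ± 0.17 (adjusted p = 0.923). Slc11a2 was not called with each animal as a fixed block (-0.23, adjusted p = 0.36), in a fit that also left out unpaired ears. It was also not called without the ears of animals 5 and 37 (-0.52, adjusted p = 0.0885) or with array brightness in the fit (-0.38, adjusted p = 0.169). Indomethacin-pretreated ears read 187, 345 and 449 as lowest, median and highest, with a log2 fold of -0.47 ± 0.17 against methylene chloride (adjusted p = 0.024). That call ended without the indomethacin ear of animal 16 or 22. Dimercaprol-pretreated ears read 363, 402 and 569, and OHV-pretreated ears 387, 647, 256, 570 and 377. The log2 folds of these 2 groups over mustard ears were 0.52 ± 0.22 (adjusted p = 0.0678) and 0.50 ± 0.23 (adjusted p = 0.122).

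Tfrc encodes transferrin receptor 1, the main entry of transferrin-bound iron. Against methylene chloride ears it fell slightly in mustard ears and in indomethacin-pretreated ears. Its signal was 1272, 1627, 1626, 1487 and 1661 in mustard ears against 1553, 1815 and 2186 as lowest, median and highest in methylene chloride ears. The ears of animals 1 and 36 lay below every methylene chloride ear and the other 3 near the low end. The log2 fold was -0.26 ± 0.09 (adjusted p = 0.0165), and it was not called without the mustard ear of animal 1 (-0.20, adjusted p = 0.101). The 2 other array A probe sets that passed the filter gave -0.26 (adjusted p = 0.294) and -0.09 (adjusted p = 0.732), and the brightest of those on array B -0.38 ± 0.21 (adjusted p = 0.178). Indomethacin-pretreated ears read 1150, 1417 and 1922, and dimercaprol-pretreated ears 1166, 1573 and 1876, each as lowest, median and highest. OHV-pretreated ears read 1500, 1510, 1412, 1450 and 1833. Against methylene chloride the log2 folds were -0.25 for dimercaprol (adjusted p = 0.0882), -0.26 for OHV (adjusted p = 0.126) and -0.35 ± 0.08 for indomethacin (adjusted p = 0.000917). The log2 folds of the pretreated over the mustard ears were 0.01, 0.01 and -0.09 in the same order. Tfrc averaged 1535 in mustard ears and 1846 in methylene chloride ears. Outside the mustard series it averaged 1334 in indomethacin, 1496 in OHV, 1544 in ethanol, 1668 in dimercaprol and 1671 in naive ears. Mustard ears were not tested against those ears.

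Cp encodes ceruloplasmin, a copper enzyme that oxidises iron leaving ferroportin. Its brightest probe set read 190, 283, 213, 510 and 509 in mustard ears against 151, 340 and 789 as lowest, median and highest in methylene chloride ears. The mustard ears spread over most of that range, and the log2 fold was -0.12 with a 95% interval from -0.63 to 0.39 (adjusted p = 0.74). On array B it was -0.18 (adjusted p = 0.64). The probe set shared by Trf, the iron carrier of plasma, and Srprb, a subunit of the signal recognition particle receptor, read 513, 1874, 661, 1668 and 2799 in mustard ears. It read 465, 1356 and 5301 as lowest, median and highest in methylene chloride ears, so the groups overlapped throughout, with a log2 fold of -0.20 ± 0.41 (adjusted p = 0.722).

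**Figure D3:**
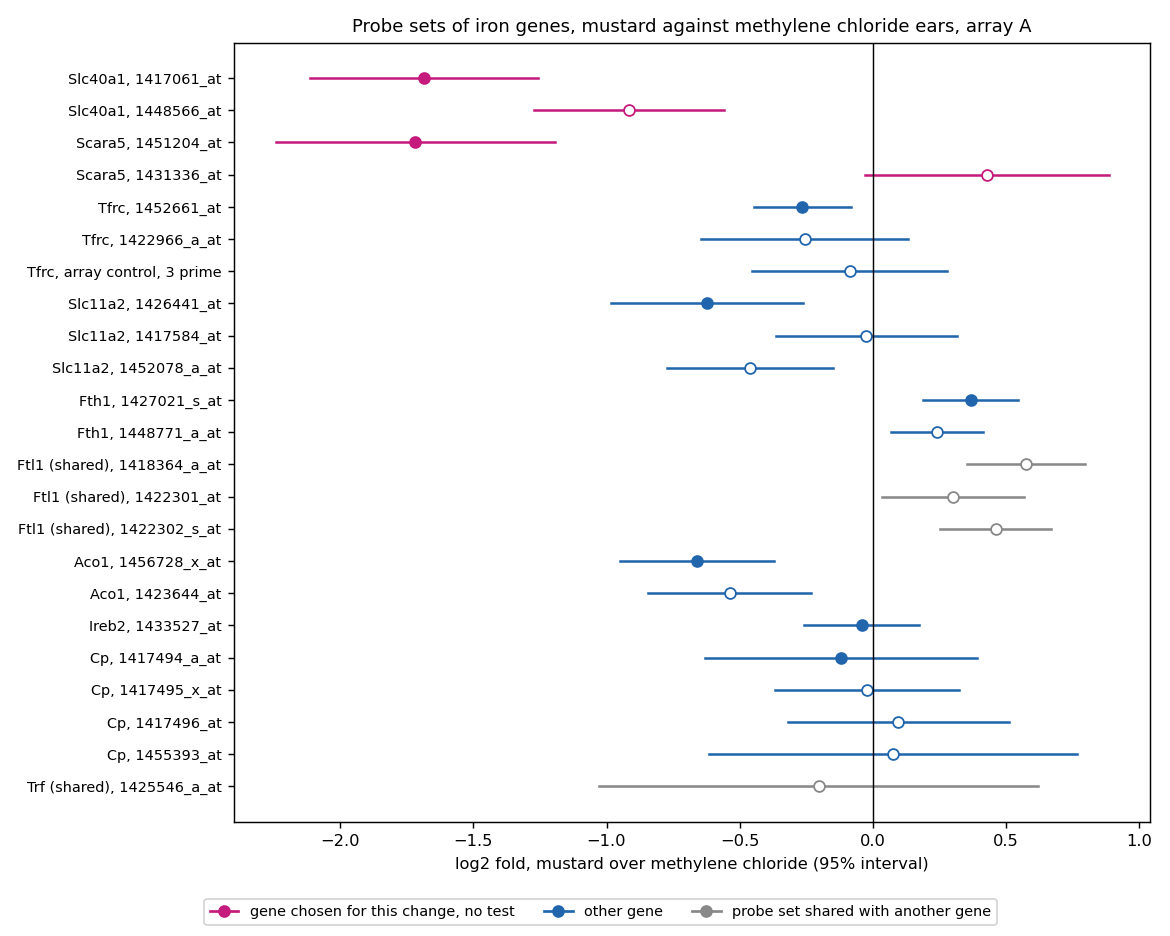
Log2 fold of mustard over methylene chloride ears for each kept array A probe set, with 95% intervals. Filled points are the probe set with the highest mean signal of a gene with its own probe sets, pink marks the 2 genes chosen for this change (no test), blue the other genes and grey the shared probe sets. Both Slc40a1 probe sets lie below 0, at -1.68 and -0.92, while those of Scara5 lie on opposite sides, at -1.72 and 0.43.

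The remaining contrasts add counts. Of the 6 genes, dimercaprol-pretreated against mustard ears called 2 (Fth1 lower, Aco1 higher) with 26.9% of all array A probe sets called. OHV-pretreated against mustard ears called 1 (Fth1 lower) with 17.1% called. Indomethacin-pretreated against mustard ears called none in limma, with 1.87% of probe sets called, and 1 gene at an unadjusted p under 0.05 beside 19.4% of probe sets. Against methylene chloride ears, indomethacin-pretreated ears had 3 genes lower (Tfrc, Slc11a2 and Aco1) with 36.0% of probe sets called. Dimercaprol-pretreated and OHV-pretreated ears had none in limma, beside 3.04% and 2.76% of probe sets called. Each had 1 gene at an unadjusted p under 0.05, beside 16.5% and 14.8% of probe sets. Between pretreatments, which differ in dose and volume, dimercaprol against indomethacin called 1 gene, Aco1, with 10.5% of probe sets called. Dimercaprol against OHV called none, with 0% of probe sets called, and none at an unadjusted p under 0.05 beside 2.07% of probe sets. OHV against indomethacin called none, with 2.08% called, and 1 at an unadjusted p under 0.05 beside 18.1% of probe sets. For Slc40a1 the log2 folds of these 3 pairs were 0.88 ± 0.25, 0.28 ± 0.26 and 0.60 ± 0.26, given without a test.

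On array B, none of the 3 genes was called by limma in any of the 10 comparisons, and none had an unadjusted p under 0.05. The share of array B probe sets called against mustard ears was 16.5% for dimercaprol, 3.17% for indomethacin and 9.57% for OHV. Against methylene chloride ears it was 0.730% for dimercaprol, 12.8% for indomethacin and 0.539% for OHV. Between pretreatments it was 1.80% for dimercaprol against indomethacin, 0% for dimercaprol against OHV and 0.0463% for OHV against indomethacin. Methylene chloride and naive ears came from different series of animals, so solvent and series cannot be told apart. Between them, on array A, none of the 6 genes was called, with 21.5% of probe sets called. None had an unadjusted p under 0.05, beside 34.8% of probe sets, and Ireb2 had the smallest adjusted p (log2 fold 0.25 ± 0.13, adjusted p = 0.169). The difference between a drug's effect with mustard and its effect without it was not called for any of the 6 genes in limma, where 8.63%, 1.84% and 0.0377% of all probe sets were called for dimercaprol, OHV and indomethacin. At an unadjusted p under 0.05 there was 1 of the 6 for each drug, beside 24.6%, 17.9% and 12.4% of all probe sets. The smallest adjusted p was that of Aco1 with dimercaprol, at 0.74 ± 0.27 on the log2 scale (adjusted p = 0.0759). In this difference the part with mustard is drug and ethanol over mustard alone, and the part without it is drug over ethanol. An effect of ethanol can therefore remain in the difference, and its parts come from different animals.

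**Figure D4:**
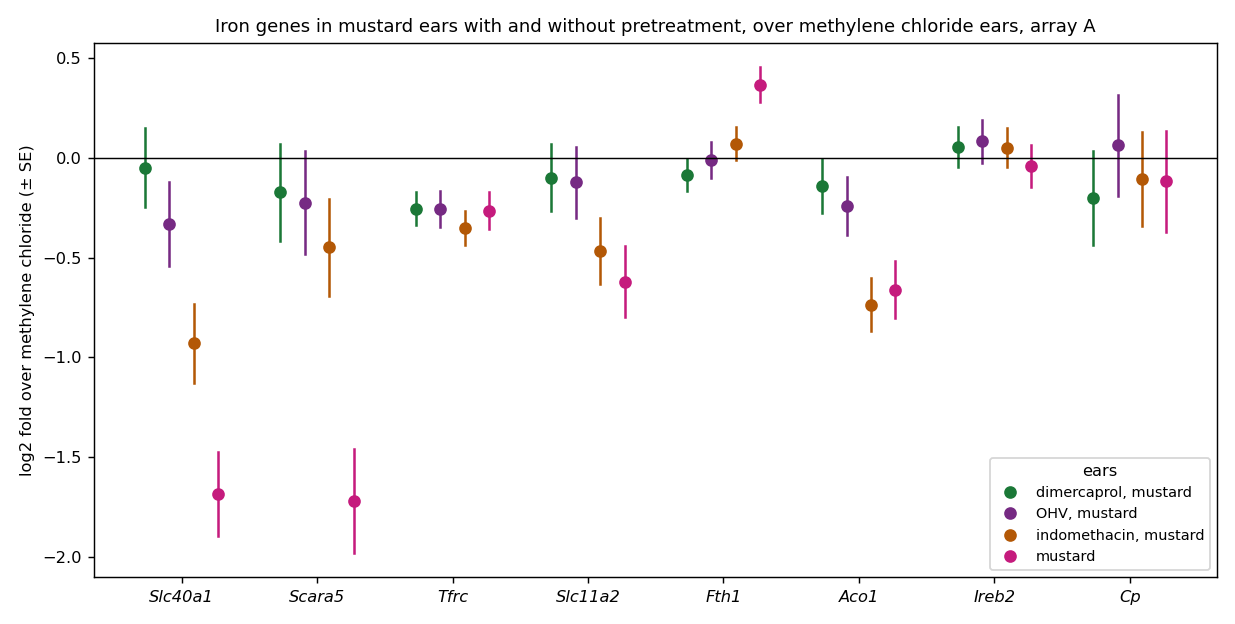
Log2 fold over methylene chloride ears, with its standard error, of 8 iron genes in ears given dimercaprol, OHV or indomethacin before mustard and in ears given mustard alone. Slc40a1 lies at -0.05, -0.33, -0.93 and -1.68 in that order, while Tfrc lies between -0.35 and -0.25 in all 4 groups.

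A wider set of iron genes was described the same way, mustard against methylene chloride ears on array A. Of all 15936 probe sets 3065 were called higher and 3772 lower there, 42.9% in all, and the list counts below are to be read beside that share. Among 16 genes of cellular iron handling 3 rose and 4 fell, with a median log2 fold of -0.06 beside -0.01 over all probe sets. With each animal as a fixed block 1 rose and 2 fell. Heph, the membrane ferroxidase hephaestin that works with ferroportin, averaged 127 in mustard ears and 284 in methylene chloride ears (-1.14 ± 0.16, adjusted p = 3.43e-07). Steap1, of a family that includes metalloreductases, averaged 264 in mustard ears and 133 in methylene chloride ears (0.82 ± 0.17, adjusted p = 0.000115). Pcbp2, which in human cells is an iron chaperone, fell (-0.35 ± 0.08, adjusted p = 0.000379), and Slc39a14, a transporter of zinc and iron, rose (0.48 ± 0.14, adjusted p = 0.00544), though not with the block (0.26, adjusted p = 0.307). In dimercaprol-pretreated against mustard ears 1 of these 16 genes rose and 2 fell, beside 26.9% of probe sets called. Heph rose (0.87 ± 0.20, adjusted p = 0.00103), while Steap1 (-0.81 ± 0.21, adjusted p = 0.00278) and Sfxn1 (-0.31 ± 0.11, adjusted p = 0.0261) fell. Without the mustard ears of animals 5 and 37, 0 of the 16 were called higher in mustard than in methylene chloride ears. Steap1 averaged 217 in naive ears, above methylene chloride ears (adjusted p = 0.0183). It was 1 of 4 called lower in methylene chloride than in naive ears, with 0 higher.

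Of 8 systemic iron regulators, 4 fell and none rose, with a median log2 fold of -0.14, and with each animal as a fixed block 2 fell. Neo1, the hemojuvelin-binding receptor neogenin, averaged 238 in mustard ears and 748 in methylene chloride ears (-1.78 ± 0.22, adjusted p = 2.97e-08). The others were the bone morphogenetic protein receptor Bmpr1a (-0.54 ± 0.08, adjusted p = 7.37e-07), its ligand Bmp2 (-0.69 ± 0.16, adjusted p = 0.000711) and the signal transducer Smad4 (-0.28 ± 0.07, adjusted p = 0.00216). With the block Bmp2 (-0.46, adjusted p = 0.183) and Smad4 (-0.22, adjusted p = 0.215) were not called. These 4 also serve pathways other than iron. In methylene chloride against naive ears, of different animals, 2 of the 8 were called higher and 2 lower (Hamp and Hfe), beside 21.5% of probe sets. Those higher were Bmp2 (399 against 226, adjusted p = 0.0100) and Smad4 (1322 against 922, adjusted p = 0.000952). Neo1 and Bmpr1a were not called there (adjusted p = 0.762 and 0.134). Mustard ears averaged 235 for Bmp2 and 1087 for Smad4 and were not tested against naive ears. Hepcidin (Hamp), the hormone that removes ferroportin from the surface, averaged 174 in mustard ears and 154 in methylene chloride ears (0.14 ± 0.16, adjusted p = 0.497).

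Mitochondrial iron and iron-sulfur cluster genes had 3 of 9 higher and none lower, with a median of 0.09. With the block, with array brightness in the fit or with no filter on dim probe sets, 1 was higher. These were the mitochondrial iron importer Slc25a28 (0.28, adjusted p = 0.0156), the cluster assembly factor Isca2 (0.24, adjusted p = 0.0429) and the ferredoxin Fdx1 (0.20, adjusted p = 0.0482). Under the block Slc25a28 (0.15, adjusted p = 0.470) and Fdx1 (0.21, adjusted p = 0.219) were not called. Heme genes had 4 of 18 higher and 4 lower, with a median of 0.06. Alas2, the erythroid first enzyme of heme synthesis, averaged 563 in mustard ears and 183 in methylene chloride ears (1.54 ± 0.22, adjusted p = 4.28e-07), and it is the red blood cell marker that rose. The other one measured, Hba-a1, averaged 113 in mustard ears and 112 in methylene chloride ears (0.04 ± 0.21, adjusted p = 0.901). Uros and Alas1, 2 further enzymes of heme synthesis, rose (0.62 ± 0.15, adjusted p = 0.000696, and 0.32 ± 0.08, adjusted p = 0.00117), but were not called with the block (0.35, adjusted p = 0.195, and 0.24, adjusted p = 0.0975). Fech, which inserts iron into heme, fell (-0.56 ± 0.13, adjusted p = 0.000415). Of 4 genes of siderophore and lactoferrin iron binding, 1 rose: Lcn2, lipocalin 2, which binds bacterial siderophores and is stored in neutrophils, averaged 1921 in mustard ears and 146 in methylene chloride ears (3.60 ± 0.32, adjusted p = 9.71e-12). It moved with the neutrophil markers given above, and their part in its rise was not tested. Without the mustard ears of animals 5 and 37 the counts higher and lower were 0 and 3, 0 and 4, 0 and 0, 4 and 1, and 1 and 0 for the 5 lists in the order given.

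**Figure D5:**
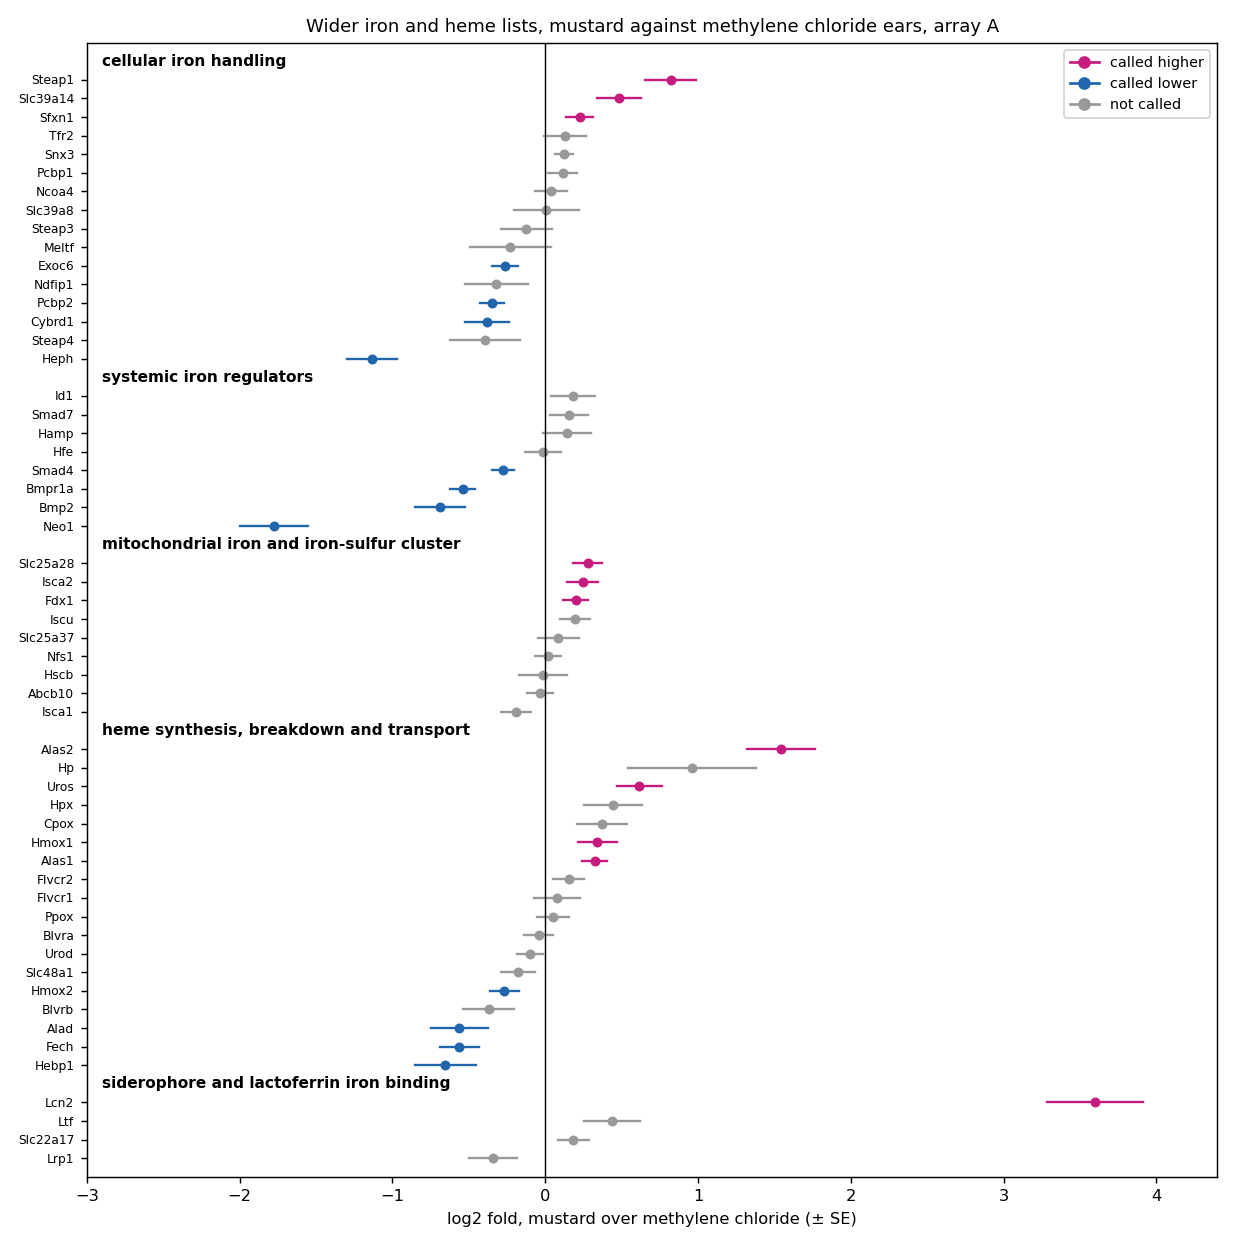
Log2 fold of mustard over methylene chloride ears, with its standard error, for the measured genes of 5 wider iron and heme lists on array A. Pink marks genes called higher, blue genes called lower and grey genes not called. Lcn2 at 3.60 and Alas2 at 1.54 lie farthest right, and Neo1 at -1.78 and Heph at -1.14 farthest left.

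Over the 43 array A ears of the mustard series, which share their scaling and array brightness, the genes most like Slc40a1 of 9599 were Bbox1 (r = 0.956), Ctnnbip1 (0.955), Gjb5 (0.954), F3 (0.954) and Rmnd5a (0.945). Those most like Scara5 were Selenop (r = 0.837), Ccdc50 (0.837), Fut8 (0.831), Htra1 (0.813) and Plpp1 (0.813). These correlations span the groups in which Slc40a1 and Scara5 were chosen to move. Within the 21 methylene chloride ears, Slc40a1 and Scara5 correlated at r = 0.0676, Slc40a1 and Aco1 at r = -0.686, Slc40a1 and Slc11a2 at r = 0.621, and Scara5 and Cp at r = 0.560. Slc40a1 and Aco1, both low in mustard ears, thus ran in opposite directions among the left ears. All values of a pair in these ears come from the same arrays.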

How the data were processed

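RNA (10 µg) from ear biopsies was hybridised to 2 Affymetrix mouse arrays, and the deposited values are MAS5 intensity signals on a linear scale, per the submitters' processing notes; the MAS5 version and its scaling are not given in the sources used here. The files gave no depth, so the number of ears limits precision. Arrays were rescaled to a common 2% trimmed mean of 500 and log2(scaled signal + 16) was taken. A probe set was kept if its scaled signal averaged 100 or more (15936 on array A, 17263 on array B). Probe sets were named from the platform annotation: 20393 of array A had 1 gene, 691 several and 1606 none, and on array B 14674, 245 and 7656. Control probe sets without a gene were dropped.

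Linear models were fitted in limma 3.58.1 (lmFit, then eBayes with its trend option) under R 4.3.3 (tables were read through data.table, version 1.17.8), 2-sided, Benjamini-Hochberg adjusted over all probe sets kept, at a threshold of 0.05. The 5 mustard-series groups shared 1 fit per array. The ears without mustard had their own fit, with naive ears averaged per animal, and comparisons across both sets used all array A ears. The fits were tested on simulated data. The left and right ears pair by animal, per the labels: same-animal deviations from group means correlated at 0.165 on average on array A over 17 pairs (-0.0955 to 0.441) and at 0.0681 on array B. The main fits had no block, and fits with animal as a block were alternatives. Fits with animal as a fixed block kept only the 17 animals with both ears. They thus also left out unpaired ears, such as the mustard ear of animal 5.

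The genes named are all 10 members with every probe set of their own, and a gene is represented by the one of its kept probe sets that has the highest mean on the log2 scale. From each wider list up to 4 genes called in mustard against methylene chloride ears are named by adjusted p, and the 5 genes with the highest Pearson correlation to Slc40a1 and to Scara5. Hamp was named besides these after its value was seen. Members, lists and tests were chosen with earlier results of these data known. Alternatives were other scaling, pseudocounts (64) and filters (300), covariates, gene summaries, blocks and leaving out ears.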

Additional observations from a re-analysis of the deposited data

Results flagged for a closer look

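In each group of 4 to 10 ears the highest or lowest ear was compared with the rest, and 7 of 76 groups held an ear that stood apart by Dixon's criterion, where chance gives about 1 in 20 groups. The mustard ear of animal 1 had a Slc11a2 signal of 456 against 254 to 282 in the other mustard ears, and the mustard ear of animal 36 an Aco1 signal of 2260 against 1072 to 1226. On array B the mustard ear of animal 1 had an Aco1 signal of 637 against 248 to 324. The OHV-pretreated mustard ear of animal 33 had a Tfrc signal of 1833 against 1412 to 1510, and the dimercaprol-pretreated ear of animal 9 a Cp signal of 155 against 287 to 377. Without mustard, the OHV ear of animal 519 had a Slc40a1 signal of 1404 against 1044 to 1137, and the indomethacin ear of animal 515 an Ireb2 signal of 253 against 340 to 348. The cause of these values was not tested.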

How the results depend on the processing

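Without rescaling, the number of called genes of 6 on array A was 6 for dimercaprol-pretreated, 5 for OHV-pretreated and 1 for indomethacin-pretreated against mustard ears, and 1 for indomethacin-pretreated against methylene chloride ears. On array B, of 3 genes, it was 1 for mustard against methylene chloride ears and, against mustard ears, 2 for dimercaprol, 1 for OHV and 1 for indomethacin. Signs turned there for Fth1, at -0.27 for mustard against methylene chloride ears and 0.46 and 0.36 for dimercaprol and OHV against mustard ears, and for Slc39a14 (-0.12), Slc25a28 (-0.34), Isca2 (-0.37), Fdx1 (-0.43) and Alas1 (-0.30). The median fold of all probe sets moved from -0.01 to -0.60 for mustard against methylene chloride ears, and the calls higher and lower from 3065 and 3772 to 270 and 10571. For dimercaprol, OHV and indomethacin against mustard ears they moved from 2525 and 1764, 1689 and 1043, and 193 and 105 to 13166 and 58, 10925 and 33, and 5948 and 1. Methylene chloride against naive ears had 1169 and 2258, against 839 and 38 without rescaling and 1461 and 1333 under quantile scaling.

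Dimercaprol against mustard ears called 1 gene with quantile scaling, the Gapdh ratio as a covariate or the mean over probe sets, and 0 with array brightness as a covariate (an alternative chosen after seeing the data) or without the mustard ears of animals 5 and 37. OHV against mustard ears called 0 under quantile scaling, either covariate or without those 2 ears. Mustard against methylene chloride ears called 2, Tfrc and Aco1, with brightness or without those ears. Brightness left 0 for dimercaprol against indomethacin, and the mean over probe sets left 1, Aco1, for indomethacin against methylene chloride ears. Leaving out 1 ear gave 3 to 4 genes for mustard against methylene chloride, 2 to 3 for indomethacin against methylene chloride, 1 to 3, 0 to 2 and 0 to 1 for dimercaprol, OHV and indomethacin against mustard, and 0 to 1 for dimercaprol against indomethacin. With animal as a replicate block no count of the 6 genes (3 on array B) moved by over 1.5 times. The fixed block was fitted only for mustard-series ears against methylene chloride ears. Under it the calls of Slc11a2 in mustard ears and Aco1 in indomethacin-pretreated ears ended, as given above. The wider lists had, higher and lower in the order given above, 1 and 2, 0 and 2, 1 and 0, 3 and 3, and 1 and 0 with animal as a fixed replicate block. They had 0 and 14, 0 and 7, 0 and 7, 1 and 11, and 1 and 2 without rescaling, 1 and 4, 0 and 3, 1 and 0, 3 and 1, and 1 and 0 with brightness, and 1 and 3, 0 and 4, 2 and 0, 3 and 1, and 1 and 0 with the Gapdh ratio. Heme genes had 7 and 4 with animal as a random block. Slc40a1 in mustard against methylene chloride ears ranged from -2.28 to -1.29 and Scara5 from -2.18 to -0.65, the last as the mean over its probe sets. The causes were not tested.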
